A study of Homo sapiens with 55 samples.

Results

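ZDHHC16, SLC3A2 and DPH5 are 3 genes whose splicing differed between SF3B1 K700E and SF3B1 WT cells and moved back towards the WT value in the K700E cells that carried guides against GPATCH8. They were chosen by these same SF3B1 splicing values, after those had been seen, so the SF3B1 libraries are described here without a test. The members are the splicing events whose coordinates all lie inside the window of one of these genes on its strand (hg19). There are 59 of them among 110816 events with coordinates: 14 in ZDHHC16, 25 in SLC3A2 and 20 in DPH5. Every member event also carried the gene's own name when its intron lengths were matched to GENCODE 29.

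The study sequenced poly(A)-selected, strand-specific RNA from K562, a human leukaemia cell line, and from 293T, a human embryonic kidney line, after CRISPR guides against GPATCH8 or SUGP1, or the control guide sgRenilla. K562 cells were labelled SF3B1 WT or K700E (1 sgRenilla library each, and 2 libraries each for sgGPATCH8 and sgSUGP1), SRSF2 WT or P95H, and U2AF1 WT or S34F (3 sgRenilla and 3 sgGPATCH8 libraries each). 293T cells carried no labelled mutation (2 sgRenilla, 4 sgGPATCH8 and 4 sgSUGP1 libraries). In the SF3B1 and 293T libraries sgGPATCH8 means guide 16 or guide 17, and sgSUGP1 means guide 3 or guide 4. The labels do not say how each mutation was introduced, whether a line is a clone, or whether replicates are separate cultures, so the p-values measure only the spread between these libraries. The files hold splicing fractions and no gene levels, so neither the loss of the targeted gene nor the cell line could be checked against expression.

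SF3B1 is a subunit of the U2 snRNP, the particle that binds the branch point near the end of an intron before the 3′ splice site is chosen. K700E is a recurrent mutation of myelodysplastic syndromes and is known for the use of cryptic 3′ splice sites a short way upstream of the usual ones. SUGP1 and GPATCH8 are G-patch proteins. SUGP1 is known to bind SF3B1 and to be displaced by its hotspot mutations. SRSF2, which binds exonic enhancers, and U2AF1, which reads the end of the intron, are other splicing factors mutated in the same diseases.

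The value of each event is the usage of the isoform listed first, as a percentage of the event's isoforms in that library, and differences are given in percentage points. For alternative 3′ splice sites it is the usage of the upstream site, which gives the longer exon. The lead event of each gene was the one with the largest K700E minus WT difference averaged over the 3 guide targets, and in all 3 genes it was a choice between 3′ splice sites. The sequences across these junctions are shown because the distance between the sites differs between the genes. They are GENCODE 29 transcript sequences, 5′ to 3′, with capitals marking the bases gained with the upstream site in ZDHHC16 and SLC3A2, and the first bases of the exon after the downstream site in DPH5.
ZDHHC16-215: gcagTCTTCGCCCCTCTTTTCTTAGttctg
SLC3A2-215: ctaaaaaaaagaTAGagacaattt
DPH5-201: aaatctaatcaaGGGAAGGAAGAT

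In ZDHHC16 the intron starts after chr10:99214556 and ends before position 99215396, 99215417 or 99215471, so the upstream site adds 21 bases to the exon begun at the middle site. The 21 bases are mostly C and T and end in TTAG. GENCODE 29 has the upstream junction in 1 transcript, where it is not coding, and the middle junction in 9 transcripts, of which 7 are coding there. Set into ZDHHC16-201 ahead of its exon 7, the 21 bases kept the reading frame and moved the first stop codon from base 888 to base 909 after the start, with no earlier stop. In SLC3A2 the intron starts after chr11:62649538 and ends before 62650139 or 62650142. These sites are 3 bases apart, and the bases between them are the TAG in capitals. GENCODE 29 has only the upstream junction, in 1 transcript, where the exon of 141 bases is not coding. In DPH5, on the minus strand, the intron starts after chr1:101460666 and ends before 101458310 or 101458296, 14 bases apart. GENCODE 29 has the downstream junction in 10 transcripts, of which 3 are coding there, and the upstream junction in none, so the 14 bases are not printed. Since 14 leaves a remainder of 2 when divided by 3, the upstream site shifts the frame of DPH5-201. Read in that frame, the first stop codon downstream of the junction lay 32 bases into exon 7 (104 bases), ahead of 1 further exon junction. The 14 bases themselves were not read, so an earlier stop codon in them or across their end was not checked.

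ZDHHC16 encodes a palmitoyltransferase of the DHHC family, which attaches fatty acids to cysteines of proteins at membranes. Usage of its upstream site was 11.5% in the WT sgRenilla library and 38.5% in the K700E sgRenilla library. The K700E sgGPATCH8 libraries were at 21% (guide 16) and 26.5% (guide 17). The WT sgGPATCH8 libraries were at 10.5% and 9.5%, close to the WT control. With sgSUGP1 the WT libraries were at 41% and 37.5% and the K700E libraries at 49% and 53.5%. Averaged over the runs, the order of the group means was WT sgGPATCH8, WT sgRenilla, K700E sgGPATCH8, K700E sgRenilla, WT sgSUGP1 and K700E sgSUGP1. The neighbours K700E sgRenilla and WT sgSUGP1 overlapped, and so did the runs of the WT sgRenilla library (10% and 13%) and those of the WT sgGPATCH8 libraries (8% to 11%). Both neighbouring pairs changed places in run 1, where K700E sgRenilla was at 38% and the WT sgSUGP1 libraries at 39% and 33%, and WT sgRenilla was at 10% and both WT sgGPATCH8 libraries at 11%. In K700E sgGPATCH8 minus sgRenilla was -14.75 points, and the K700E minus WT difference was 27 points with sgRenilla and 13.75 with sgGPATCH8.

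SLC3A2 encodes the CD98 heavy chain, the membrane partner of several amino acid transporters and of β1 integrin. Its lead event went the other way: usage of the upstream site was 73.5% in the WT sgRenilla library and 31% in the K700E sgRenilla library. The K700E sgGPATCH8 libraries were at 78% and 71%, on either side of the WT control. The WT sgGPATCH8 libraries were at 86.5% and 86%. With sgSUGP1 the WT libraries were at 78% and 90% and the K700E libraries at 50% and 37.5%. The K700E minus WT difference was -42.5 points with sgRenilla and -11.75 points with sgGPATCH8. The sequencing runs of single libraries differed widely here: 82% and 65% in the WT sgRenilla library, and 38% and 62% in the K700E sgSUGP1 library of guide 3, where the median difference between runs over all events was 2 points. From run 1 alone the K700E minus WT difference with sgRenilla was -50 points, and from run 2 alone -35 points.

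The exon behind the SLC3A2 sites was rarely used. Its inclusion, against joining the flanking exons directly, was 1.5% in the WT sgRenilla library and 0.5% in the K700E sgRenilla library. It was 4% and 3% in the WT sgGPATCH8 libraries and 1.5% in both K700E sgGPATCH8 libraries. It was 2% in both WT sgSUGP1 libraries and 1% in both K700E sgSUGP1 libraries. The lead value of SLC3A2 thus describes how a minor isoform was divided, and the files give no read counts behind it.

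DPH5 encodes the methyltransferase of diphthamide synthesis, the pathway that modifies a histidine of the elongation factor EEF2. Its upstream site was at 0.5% in the WT sgRenilla library and at 0.5% and 1% in the WT sgGPATCH8 libraries. It was at 39.5% in the K700E sgRenilla library. The K700E sgGPATCH8 libraries were at 29.5% and 32%, a difference of -8.75 points from sgRenilla, and still 30 points above the WT sgGPATCH8 mean. With sgSUGP1 the WT libraries were at 24% and 43% and the K700E libraries at 52.5% and 54.5%. The WT sgSUGP1 libraries differed by guide: the difference from the WT control was 33 points with both, 42.5 without guide 3 and 23.5 without guide 4. The K700E minus WT difference was 39 points with sgRenilla and 30 with sgGPATCH8, so most of it remained.

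**Figure D1:**
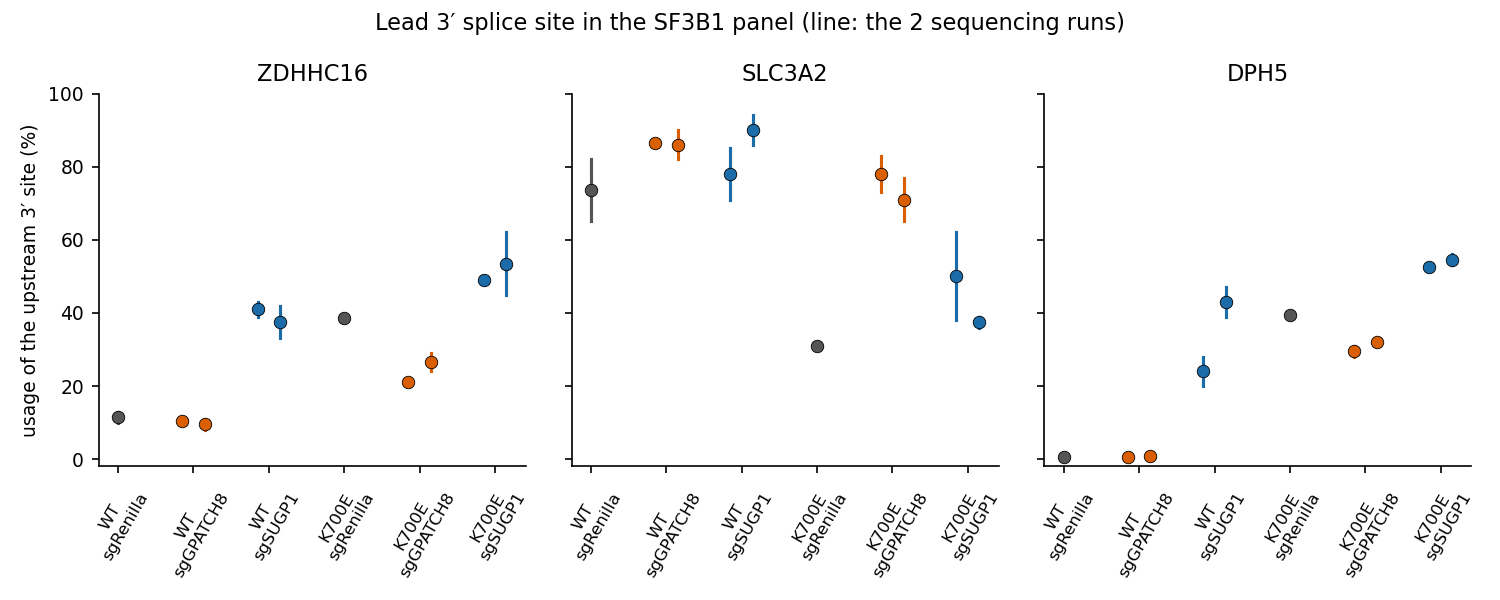
Usage of the upstream 3′ splice site (%) in each library of the SF3B1 panel, with 1 panel per gene and 6 groups by genotype and guide target on the horizontal axis. Points are library means and vertical lines join the 2 sequencing runs of a library. The K700E sgRenilla library lies above the WT sgRenilla library in ZDHHC16 and DPH5 and below it in SLC3A2, and the K700E sgGPATCH8 libraries lie between those 2 in ZDHHC16 and DPH5.

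Known targets of mutant SF3B1 were set beside them, with their lead event chosen in the same way. For MAP3K7, a kinase of NF-κB signalling, the group means were 9.5% (WT sgRenilla), 63% (K700E sgRenilla) and 22.5% ± 3.54 (K700E sgGPATCH8, SD, n = 2). For TMEM14C, a mitochondrial protein of heme synthesis, they were 5%, 58.5% and 59% ± 0.71. For BRD9, a subunit of a SWI/SNF chromatin remodelling complex, they were 32.5%, 96.5% and 95.8% ± 1.77. The BRD9 event is a choice between 3′ splice sites (869519 and 869509) and does not measure the inclusion of an exon. It was close to its upper limit in K700E, and in 293T its 2 sgRenilla libraries were at 64% and 13%. Little can be read from its small difference. The K700E sgGPATCH8 mean was thus far below K700E sgRenilla in MAP3K7, at -14.75 points from it in ZDHHC16 and -8.75 in DPH5, and within 1 point of it in TMEM14C and BRD9. In WT cells with sgSUGP1, MAP3K7 was at 56%, TMEM14C at 59% and BRD9 at 96.8%, all above their WT control, as were ZDHHC16 and DPH5.

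**Figure D2:**
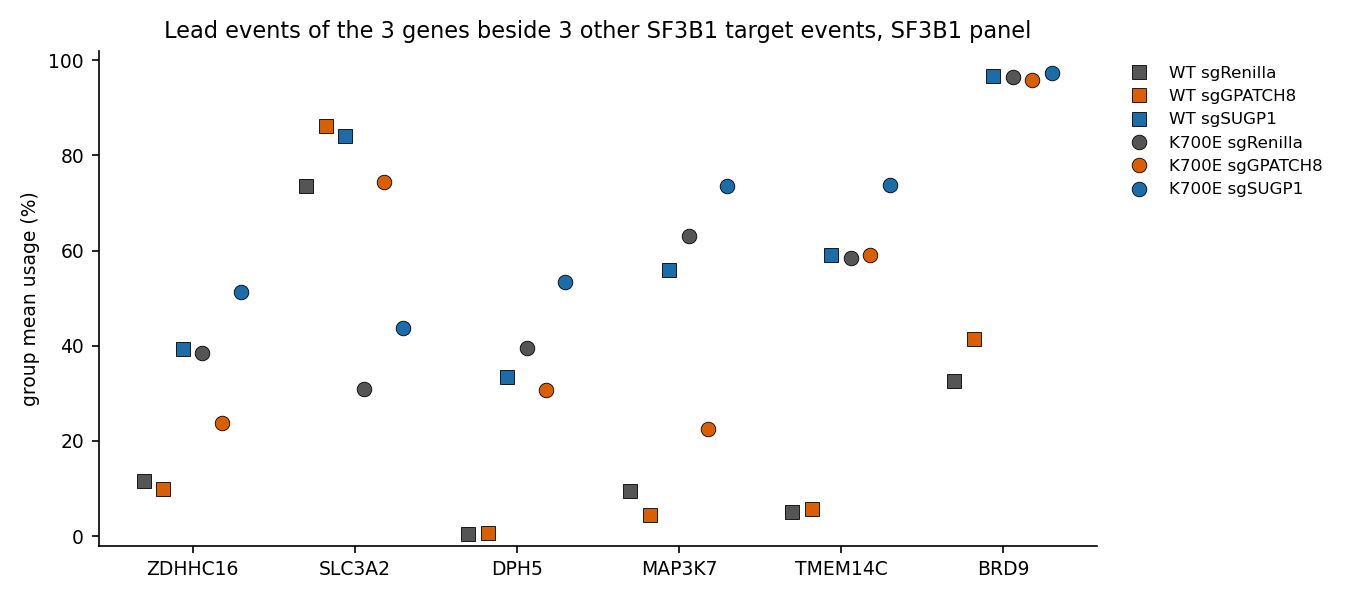
Group mean usage (%) of the lead event of ZDHHC16, SLC3A2 and DPH5 and of the lead events of MAP3K7, TMEM14C and BRD9 in the SF3B1 panel. Squares are WT and circles K700E, grey is sgRenilla, orange sgGPATCH8 and blue sgSUGP1. The orange circle lies well below the grey circle in MAP3K7 and ZDHHC16, slightly below in DPH5, on it in TMEM14C and BRD9, and far above it in SLC3A2.

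The events most like each lead event over the 10 SF3B1 libraries were found by Pearson's r of the log2 usage ratio among events of other genes spanning at least 20 points. For ZDHHC16 they were 3′ splice sites of MAP3K7 (r = 0.983), ABCA2 (0.977) and HSF4 (0.973). For DPH5 they were a 3′ splice site of SH2D2A (0.997), that of TMEM14C (0.996) and a cassette exon of SEPT6 (0.996). For SLC3A2 they were cassette exons of TRDMT1 (0.941), ALG1L (0.935) and HOXB-AS3 (0.928). ZDHHC16 and DPH5 followed each other with r = 0.926, while SLC3A2 gave -0.61 with ZDHHC16 and -0.53 with DPH5. These are descriptions over 10 libraries that share genotype and guide, picked as the highest of about 13150 events each.

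Of the 59 members, 37 were in range in the SF3B1 panel, with group means neither all below 5% nor all above 95%, and shares below are of these 37. Between K700E and WT with sgRenilla, 10 members (27.0%) differed by at least 10 points, 6 higher and 4 lower, where 20.8% of the 50823 events in range did. Averaged over the guide targets it was 6 members (16.2%), against 8.98% of events. Between K700E and WT with sgGPATCH8 it was 7 members (18.9%), against 15%. The choice of genes used these contrasts, so nothing is read from the counts. The sgGPATCH8 and sgRenilla means were that far apart for 4 members in WT (10.8%, against 14.7% of events) and 6 in K700E (16.2%, against 15.2%). The sgSUGP1 and sgRenilla means were that far apart for 7 in WT (18.9%, against 13.8%) and 5 in K700E (13.5%, against 15.9%). The K700E differences with sgRenilla and with sgGPATCH8 were that far apart for 4 members (10.8%, against 22.9%).

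Several of these events share a junction with a lead event and are not separate measurements. In SLC3A2, exons that begin at 62649977 or 62650002 compete with the rare exon at 62650139. Against joining the flanking exons directly, these competing exons were rare too. They were included at 0.5% to 2% (62649977) and 0% to 1.5% (62650002) in the 10 SF3B1 panel libraries, so the shares below concern minor isoforms. By that measure the panel means were 1.3% (62649977), 0.65% (62650002) and 1.8% (62650139). The shares below are higher than these means would give, so they cannot be read as a plain split of the exons. The share of the exon at 62649977, against that at 62650139, was 79% in WT sgRenilla and 90% in K700E sgRenilla. It was 58.5% and 66% in WT sgGPATCH8 against 77% and 84% in K700E sgGPATCH8. The share of the other was 87.5% and 94.5% with sgRenilla, and 70.5% and 76.5% against 85.5% and 90.5% with sgGPATCH8. In DPH5, the exon entered through the downstream site, against its skipping, was included at 77.5% in WT sgRenilla, 63% in K700E sgRenilla and 73% and 61.5% in K700E sgGPATCH8. The event that lists the same exon with its upstream site was at 61%, 71.5%, 69% and 67% in those libraries. The upstream site itself was at only 0.5% of the 3′ site choice in WT sgRenilla. These values thus cannot be read as inclusion through the upstream site alone.

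A few events away from the lead sites also differed by 10 points or more. A ZDHHC16 3′ site pair 3 bases apart (99212564 and 99212567) was at 78% in WT sgRenilla and 73% in K700E sgRenilla. It was at 55%, 46.5%, 40% and 49% in the sgGPATCH8 libraries, lower in both genotypes. With sgSUGP1 it was lower in WT (43.5% and 60%) and at 72% and 68% in K700E. Outside the SF3B1 panel the same pair ranged from 14% to 87% among the U2AF1 WT sgRenilla libraries, a wide spread within 1 group. Against the site at 99212652, the site at 99212564 was used at 2% to 4.5% in the 10 SF3B1 panel libraries. The pair thus divides a minor isoform. An SLC3A2 3′ site pair 3 bases apart (62644256 and 62644259), in the coding sequence, was at 62% in WT and 51.5% in K700E with sgRenilla, and at 66% and 64% in WT and 55.5% and 51.5% in K700E with sgGPATCH8. A pair of ZDHHC16 exons used in place of each other (99207951 and 99210114) was at 52.5% and 41% with sgRenilla in WT and K700E, and at 42.5% to 49.5% in the 4 sgGPATCH8 libraries. Against their skipping, these exons were included at only 0.5% to 1.5% (99207951) and 4.5% to 8% (99210114) in the SF3B1 panel. Those values would give the exon at 99207951 a smaller share, so the value of the pair cannot be read as a plain split. In DPH5, a 3′ site pair 3 bases apart (101456187 and 101456184) was at 87.5% and 84% with sgRenilla in WT and K700E, and at 96% and 93.5% in K700E sgGPATCH8. A choice between DPH5 exons that begin at 101479374 and 101467143 was at 40.5% in WT sgRenilla and 50.5% in K700E sgRenilla. A choice between exons of DPH5 that begin at 101467143 and 101460705 was at 60% in K700E sgRenilla and at 72% and 69.5% in K700E sgSUGP1. Against their skipping, these exons were included at 90.5% to 95% (101479374), 89% to 97.5% (101467143) and 94.5% to 98% (101460705) in the SF3B1 panel. Both choices thus concern minor isoforms that skip one of the exons. A DPH5 3′ site pair (101467143 and 101467100), reached from the exon that ends at 101487197, was at 72% in WT sgRenilla and 64% in K700E sgRenilla. In K700E it was at 73% and 75% with sgGPATCH8 and at 75% and 74.5% with sgSUGP1. Its junctions skip the exon that begins at 101479374, so this value concerns a minor isoform too.

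In 293T cells, whose libraries took no part in the choice of genes, the lead sites of ZDHHC16 and DPH5 were used more with sgSUGP1 and were near the control with sgGPATCH8. ZDHHC16 was at 6% and 10% with sgRenilla, at 9%, 14%, 9% and 10% with sgGPATCH8, and at 33%, 33%, 28% and 23% with sgSUGP1. The sgSUGP1 libraries did not overlap the others. DPH5 was at 0% in both sgRenilla libraries, at 0%, 1%, 0% and 2% with sgGPATCH8, and at 12%, 13%, 18% and 23% with sgSUGP1, again without overlap. It entered the test only through its sgSUGP1 mean, since the other group means were below the limit of 5%. The test was limma on the log2 ratio of usage over its complement, across 46493 events, with a call at a Benjamini-Hochberg adjusted p under 0.05 and a difference of at least 5 points.

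Between sgSUGP1 and sgGPATCH8, limma called 2 of the 36 members tested, where 0.746% of all events were called and 0.51% were called higher. One of the 2, DPH5, was in range only through sgSUGP1 and could only be called higher, so nothing is read from the count. ZDHHC16 rose by 18.8 points (limma adjusted p = 0.0312, with 1.74 ± 0.24 SE as log2 ratio). For DPH5 the difference was 15.8 points (limma adjusted p = 0.0127, with 3.69 ± 0.41), and with no limit on the group means, where it was not selected by its sgSUGP1 level, limma adjusted p was 0.0168. These calls were near the threshold. ZDHHC16 lost its call without any one of the 8 libraries (limma adjusted p between 0.0683 and 0.137). DPH5 lost it without any sgSUGP1 library or without replicate 1 of sgGPATCH8 guide 16 (limma adjusted p between 0.0587 and 0.0775), and kept it without each of the other 3 sgGPATCH8 libraries.

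Against sgRenilla, sgSUGP1 called 0 of 36 members by limma (4 at an unadjusted p under 0.05), where 0.0452% of all events were called. ZDHHC16 was higher by 21.3 points (2.15 ± 0.30, limma adjusted p = 0.11) and DPH5 by 16.5 points (4.34 ± 0.50, limma adjusted p = 0.0653). DPH5 passed under 3 other settings, with limma adjusted p values of 0.0212, 0.0326 and 0.02. Without any 1 of the 6 libraries it did not, with limma adjusted p between 0.232 and 0.356, and no member was called. sgGPATCH8 against sgRenilla also called 0 of 36 members (2 at an unadjusted p under 0.05), where 0.0731% of all events were called. There ZDHHC16 differed by 2.5 points (limma adjusted p = 0.781), SLC3A2 by 8 points (0.92) and DPH5 by 0.75 points (0.786).

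The SLC3A2 site varied widely between the 293T libraries. Its upstream site was at 38% and 51% with sgRenilla, at 66% and 67% with sgGPATCH8 guide 16 and 29% and 48% with guide 17. With sgSUGP1 it was at 39% and 10% for guide 3 and 63% and 36% for guide 4. The groups overlapped, and sgSUGP1 minus sgGPATCH8 was -15.5 points (limma adjusted p = 0.552). The exon behind the site was included in 0% to 1% of transcripts in these 10 libraries.

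**Figure D3:**
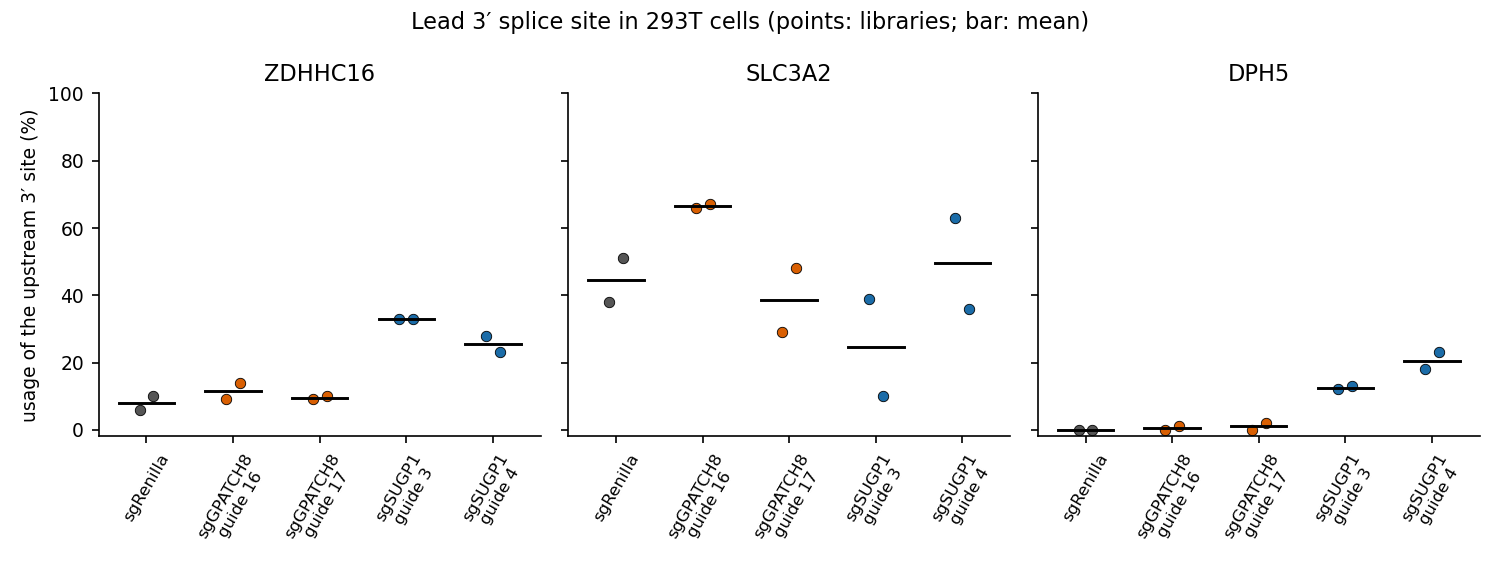
Usage of the upstream 3′ splice site (%) of each gene in the 10 libraries of 293T cells, by guide. Points are libraries and bars the mean of a guide. The sgSUGP1 points of ZDHHC16 (23% to 33%) and DPH5 (12% to 23%) lie above all sgRenilla and sgGPATCH8 points, while those of SLC3A2 overlap the others.

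The SRSF2 libraries show the same sites without an SF3B1 mutation. ZDHHC16 was at 13%, 13% and 12% (WT sgRenilla), 14%, 7% and 9% (WT sgGPATCH8), 9%, 6% and 12% (P95H sgRenilla) and 11%, 9% and 16% (P95H sgGPATCH8). All 4 groups overlapped. DPH5 was between 0% and 3% in the 12 libraries and below the limit for testing. SLC3A2 was at 71%, 90% and 82% (WT sgRenilla), 91%, 90% and 82% (WT sgGPATCH8), 69%, 68% and 62% (P95H sgRenilla) and 76%, 85% and 91% (P95H sgGPATCH8). The P95H control libraries were lowest and did not overlap either neighbour. P95H minus WT was -14.7 points (limma adjusted p = 0.323, with -1.18 ± 0.51 SE as log2 ratio) and sgGPATCH8 minus sgRenilla in P95H was 17.7 points (1.46 ± 0.51, limma adjusted p = 0.135), so neither passed.

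The U2AF1 libraries gave no called difference in the lead sites. ZDHHC16 was at 8%, 4% and 21% (WT sgRenilla), 18%, 12% and 11% (WT sgGPATCH8), 13%, 14% and 11% (S34F sgRenilla) and 14%, 8% and 14% (S34F sgGPATCH8). SLC3A2 was at 72%, 84% and 72%, then 86%, 60% and 66%, then 54%, 78% and 66%, then 80%, 56% and 55% in the same order. DPH5 was between 0% and 2% in all 12. The groups overlapped in each gene. Over the 3 comparisons and their interaction, limma adjusted p was 0.846 or higher for SLC3A2 and 0.88 or higher for ZDHHC16. These values come from the fit that does not pair same-numbered libraries.

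**Figure D4:**
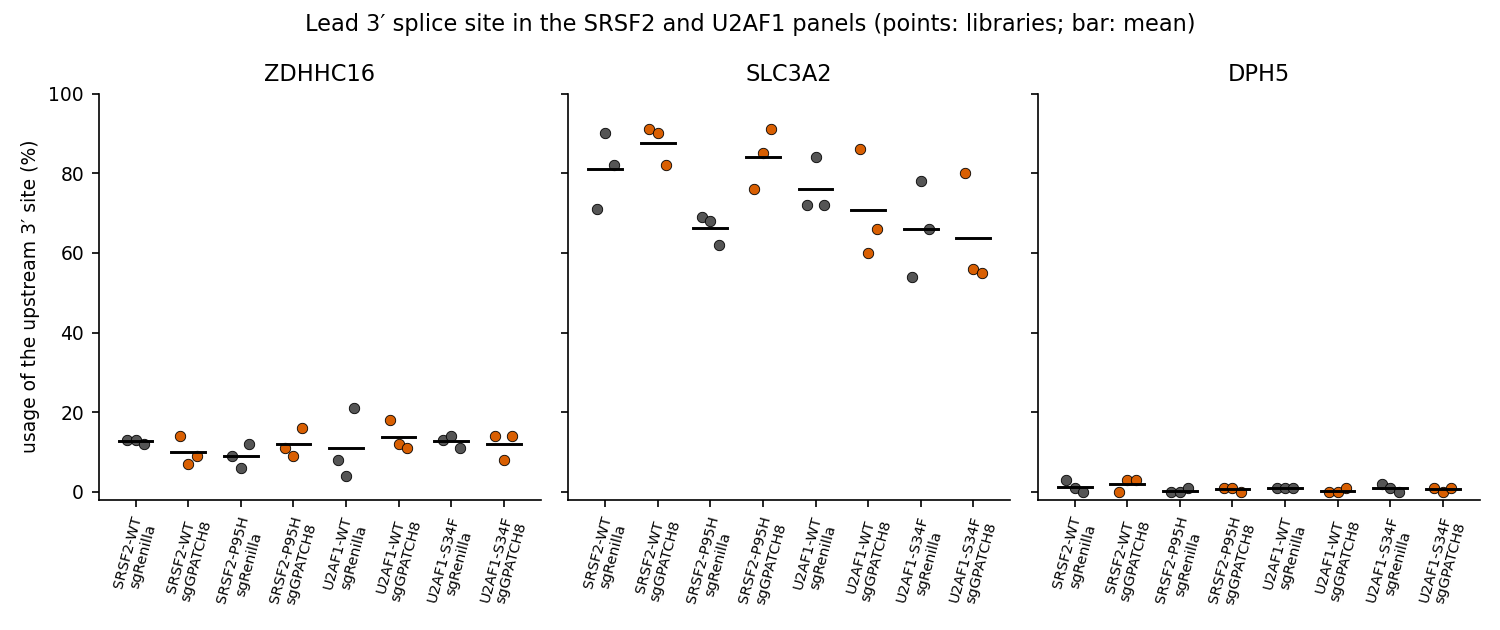
Usage of the upstream 3′ splice site (%) of each gene in the 12 SRSF2 and 12 U2AF1 panel libraries, by genotype and guide target. Points are libraries and bars group means. ZDHHC16 lies between 4% and 21% and DPH5 between 0% and 3% in every group, and the lowest SRSF2 group of SLC3A2 is P95H sgRenilla.

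In P95H cells, sgGPATCH8 lowered 3 of the 37 members tested (8.11%), all by limma and none of them a lead event, where 4.84% of all 43963 events were called and 2.95% were called lower. The cassette exon of ZDHHC16 at 99213556 was at 66%, 69% and 68% with sgRenilla and 52%, 55% and 44% with sgGPATCH8. It fell by 17.3 points (limma adjusted p = 0.0263, with -1.02 ± 0.22 SE as log2 ratio). It is a coding exon of 48 bases, a multiple of 3, and the 6th exon of ZDHHC16-203. The SLC3A2 exon at 62649977, against the rare exon, was at 75%, 80% and 78% and then 71%, 65% and 66%, and fell by 10.3 points (limma adjusted p = 0.0467). The SLC3A2 exon at 62650002 was at 84%, 88% and 87% and then 80%, 77% and 76%, and fell by 8.67 points (limma adjusted p = 0.0348). These 2 events share the junction to the rare exon. In SRSF2 WT they differed by -10.7 and -8 points with sgGPATCH8, which did not pass (limma adjusted p = 0.136 and 0.195). Inclusion of the rare exon itself, against joining the flanking exons directly, was 2% in all 3 P95H sgRenilla libraries and 3% in all 3 P95H sgGPATCH8 libraries. By the same measure the exons at 62649977 and 62650002 were at 1% to 3% and 1% to 2% in the 12 SRSF2 panel libraries. Both calls thus concern minor isoforms. Their values are higher than these inclusion values would give, so they cannot be read as a plain split of the exons.

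The 3 calls depended on single libraries. Without each of the 6 libraries in turn, 0 or 1 of them remained: the SLC3A2 exon at 62650002 without P95H sgRenilla replicate 1, and the ZDHHC16 exon without P95H sgGPATCH8 replicate 2. The interaction of P95H and sgGPATCH8 called 0 of 37 members by limma (2 at an unadjusted p under 0.05) and 0.0614% of all events, so the effect of sgGPATCH8 was not shown to differ between P95H and WT. P95H against WT called 0 of 37 members (9 at an unadjusted p under 0.05), where 1.08% of all events were called. sgGPATCH8 in SRSF2 WT called 0 of 37 (2 at an unadjusted p under 0.05), where 0.491% of all events were called.

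The ZDHHC16 exon was lower with sgGPATCH8 than with sgRenilla in the group means of all 7 backgrounds. In SF3B1 WT it was at 51% with sgRenilla and 44% and 48% with sgGPATCH8, and in SF3B1 K700E at 63% and then 49% and 44.5%. In SRSF2 WT it was at 58%, 63% and 61% and then 65%, 55% and 54%, with overlap. In U2AF1 WT it was at 58%, 71% and 63% and then 54%, 52% and 52%, without overlap, and in S34F at 36%, 46% and 50% and then 32%, 43% and 44%, with overlap. In 293T it was at 47% and 46% with sgRenilla and at 31%, 29%, 31% and 31% with sgGPATCH8, a difference of -16 points (limma adjusted p = 0.251, with -0.96 ± 0.21 SE as log2 ratio). With sgSUGP1 in 293T it was between 37% and 45%. Of the 33 members in range in all 4 panels, this event was the 1 whose sgGPATCH8 mean was below control in all backgrounds, where 2.75% of 32586 events were. The mean was above control in all backgrounds for 3 members, all in SLC3A2, where 2.76% of events were. The first share is close to the background, and 2 of the 3 SLC3A2 events concern the same exon. All 4 events were picked with their values known.

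**Figure D5:**
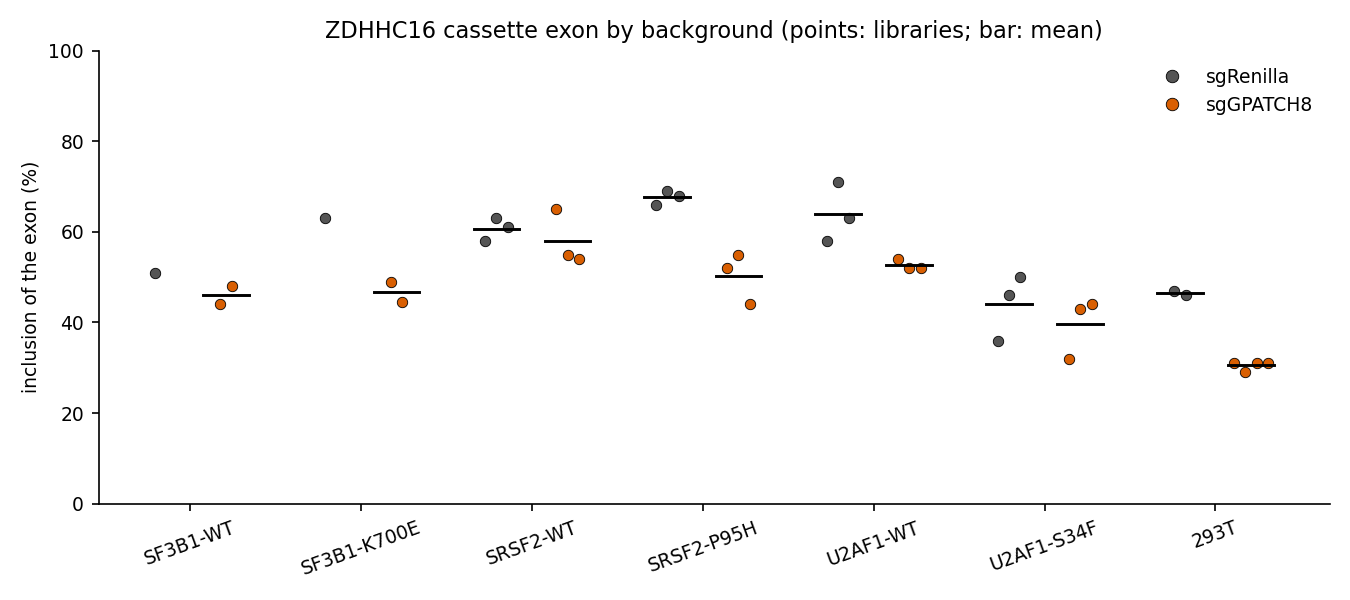
Inclusion (%) of the cassette exon of ZDHHC16 in the sgRenilla (grey) and sgGPATCH8 (orange) libraries of the 7 backgrounds. Points are libraries and bars means of groups with more than 1 library. The sgGPATCH8 mean is lower in each background, with differences of -2.67 points in SRSF2 WT and -17.3 points in SRSF2 P95H, and the groups do not overlap in 293T.

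In the U2AF1 panel limma called 0 of 37 members with S34F (8 at an unadjusted p under 0.05), where 0.0023% of the 43468 events were called. With the replicate number as a block, since same-numbered libraries deviated together, 15 events were called in place of 1, and again no member. The largest member difference was at a 3′ site pair of DPH5, 43 bases apart (101467143 and 101467100), reached from the exon that ends at 101487197. Its upstream usage was 70%, 62% and 67% in WT and 48%, 42% and 47% in S34F, without overlap. The difference was -20.7 points (limma adjusted p = 0.133, or 0.0565 with the block, and -1.21 ± 0.23 SE as log2 ratio). The sgGPATCH8 libraries repeated the levels, with 66%, 62% and 66% in WT and 48%, 41% and 43% in S34F. These junctions skip the exon that begins at 101479374. That exon was included at 90% to 95% in the 12 U2AF1 panel libraries, against the junction to 101467143, so the value divides a minor isoform. The same pair of sites after the nearer exon was at 87%, 90% and 92% in WT and 79%, 80% and 83% in S34F, a difference of -9 points (limma adjusted p = 0.221). The ZDHHC16 cassette exon differed by -20 points between S34F and WT (limma adjusted p = 0.229). sgGPATCH8 called 0 of 37 members in U2AF1 WT (0 at an unadjusted p under 0.05), where 0.0322% of all events were called (14 events, and 25 with the block). It called 0 in S34F (0 at an unadjusted p under 0.05), where 0.0345% of all events were called, and the interaction called 0 members and 0% of all events.

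Some SLC3A2 events separated the cell lines. The longer form of a coding exon of SLC3A2-203 is set by its 5′ sites (62638309 and 62638267). In K562 it was at 27% to 35.5% in the 10 SF3B1 panel libraries, 28% to 39% in the SRSF2 panel and 24% to 50% in the U2AF1 panel. In the 10 293T libraries it was at 69% to 89%. The same exon, which begins at 62638217, was included at 13% to 19%, 14% to 22% and 11% to 22% in those K562 panels. In 293T its inclusion was 36% to 46%. The ranges did not overlap, but the tables were deposited separately and the difference was not tested.

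The pathway partners of the 3 genes were counted in the tested comparisons. Of 7 other genes of diphthamide synthesis and its substrate EEF2, 5 had tested events. DPH3, a small iron protein of the first synthesis step, had 2 of the 39 events called with P95H (5.13%, against 1.08% of all events). Both were cassette exon events that fell: from 73% ± 1.73 to 57.7% ± 4.04 (SD, n = 3, limma adjusted p = 0.0246) and from 49.7% ± 2.52 to 35% ± 2.65 (limma adjusted p = 0.0236). The 2 events span the same coordinates (16302336 to 16306276), so they are not separate measurements and nothing is read from the share. DPH1, a subunit of the enzyme of that step, had 1 event called with sgGPATCH8 in P95H (2.56% of 39, below the 4.84% of all events), a 5′ site that rose from 72.3% ± 2.31 to 83% ± 0 (SD, n = 3, limma adjusted p = 0.0107). In the other SRSF2 comparisons, the U2AF1 panel and 293T limma called 0 events of this list.

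Among 9 light chains and partners of SLC3A2, SLC7A6, a light chain that carries cationic amino acids, had 1 of 24 events called with sgGPATCH8 in P95H, a share of 4.17% against 4.84% of all events. Splicing of its intron fell from 42% ± 1.73 to 25.7% ± 0.58 (SD, n = 3, limma adjusted p = 0.00125). The interaction was also called (-19 points, limma adjusted p = 0.0461). Among 24 other DHHC enzymes and cofactors, 7 of 66 events (10.6%) were called with sgGPATCH8 in P95H, 4 higher and 3 lower, where 4.84% of all events were called. ZDHHC4 had 2 of them, 3′ sites that rose from 10.3% ± 0.58 to 21.7% ± 3.79 and from 14% ± 2 to 25% ± 2 (SD, n = 3, limma adjusted p = 0.00735 and 0.0121). These 2 events overlap and end at the same position (6618197), so they are not separate measurements. A cassette exon of ZDHHC24 fell from 51.3% ± 2.31 to 17% ± 10.4 (limma adjusted p = 0.0216) and that of ZDHHC20 from 36.7% ± 3.21 to 16.7% ± 5.69 (limma adjusted p = 0.016). ZDHHC3, ZDHHC6 and ZDHHC14 had 1 called event each. Limma called 0 events of these 2 lists with P95H, in SRSF2 WT, in the U2AF1 panel or in 293T.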

How the data were processed

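The authors deposited 4 tables of splicing fractions (0 to 1, 2 decimals), with the usage of the isoform listed first per event on hg19. RSEM 1.2.4, TopHat2 2.0.8b and Bowtie are named, per the submitters' processing notes, with no role. How reads became fractions is not given in the sources used here. Counts were not used here, so the depth behind each value is unknown.

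The 2 sequencing runs of each SF3B1 library were averaged. Events were tested with limma 3.58.1 (R 4.3.3) on log2 of (usage + 0.01) over (1 - usage + 0.01), for events with a value in every library and group means neither all below 5% nor all above 95%. P-values were adjusted over all events of a panel. In 293T the guides of a target were weighted equally. The procedure was tested on simulated data. Between 73.0% and 79.2% of events had a value in a library.

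Other events were named if called in a tested comparison, or if SF3B1 group means differed by 10 points. Members and lists were chosen with earlier results of these data known. Events were matched to genes by intron length, since GENCODE 29 is on GRCh38 (92.7% named).

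Same-numbered U2AF1 libraries deviated together in 2 comparisons (lowest r = 0.152 for S34F against WT and 0.123 for sgGPATCH8 in WT), so these count as paired. The rule was an r over 0.1 in every same-numbered pair, and numbers in the other comparisons did not meet it. For sgGPATCH8 in S34F the lowest r was 0.089, just under the rule. The U2AF1 p-values come from the fit without the replicate block, which ignores this pairing, unless the block is named.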

Additional observations from a re-analysis of the deposited data

How the results depend on the processing

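No called value changed sign under any alternative run. Values that did not pass, or had no test, changed sign in 74 fits. Among them were sgGPATCH8 minus sgRenilla in SF3B1 WT from run 1 alone, at 1 in place of -1.5 points for ZDHHC16 and -0.5 in place of 0.25 for DPH5. Another offset (0.05), no limit on group means, 1 missing library, 1 mean per target in 293T, each sequencing run alone and each library left out were tried. For sgSUGP1 against sgRenilla in 293T, 1 member was called in place of 0 with the offset of 0.05, with no limit and with 1 mean per target: DPH5, at 16.5 points each time (limma adjusted p 0.0212, 0.0326 and 0.02). The SLC3A2 exon at 62649977 lost its P95H call with 1 missing library allowed (limma adjusted p 0.053).

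With the replicate block, the member count for sgGPATCH8 in P95H was 0 in place of 3 and that for sgSUGP1 against sgGPATCH8 in 293T was 1 in place of 2, where ZDHHC16, at 18.75 points, had a limma adjusted p of 0.0628. In neither panel did same-numbered libraries meet the rule for pairing, and the labels do not say what such libraries share. Over all events the block gave 87 calls in place of 475 for P95H, 120 in place of 216 for sgGPATCH8 in SRSF2 WT, 5 in place of 27 for the SRSF2 interaction, 32 in place of 15 for sgGPATCH8 in S34F, 188 in place of 347 for sgSUGP1 against sgGPATCH8, and 0 in place of 34 and 21 for the other 293T comparisons. It changed no other member call. With no limit, calls over all events were 244 (SRSF2 interaction), 49 (S34F), 33 (sgGPATCH8 in S34F), 2 (U2AF1 interaction), 108 (sgGPATCH8 in 293T) and 84 (sgSUGP1 in 293T). With the offset of 0.05 they were 55 (SRSF2 interaction) and 39 (sgSUGP1 in 293T), with 1 missing library 16 (SRSF2 interaction), and with 1 mean per target 87 and 52 in 293T.

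Leaving out 1 library gave 0 to 1 member calls for sgGPATCH8 in P95H and 0 to 1 for sgSUGP1 against sgGPATCH8 in 293T, with differences of 14.5 to 17 points for DPH5 and 17.5 to 20 points for ZDHHC16 (18.5 and 19 without either sgGPATCH8 guide 17 library). Over all events it gave 1106 to 1309 calls for the former and 90 to 121 for the latter. In the SF3B1 panel it gave 23.5 to 42.5 points for DPH5 with sgSUGP1 in WT. From run 1 and run 2 alone, SLC3A2 gave -50 and -35 points (K700E, sgRenilla), 0.5 and 20.5 (sgSUGP1 in WT), 5 and 20.5 (sgSUGP1 in K700E) and 41.5 and 20 (change of the K700E difference with sgGPATCH8), and ZDHHC16 gave 9.5 and 16 (sgSUGP1 in K700E). The cause of these shifts was not tested. With 1 sgRenilla library per SF3B1 genotype and no read counts, small differences and rarely used exons cannot be judged at this depth.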
